A study of Mus musculus with 15 samples.

Results

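This report describes 10 genes that mark muscle stem cells or encode the regulators of muscle formation, Pax7, Calcr, Myf5, Cdh15, Myod1, Myog, Mymk, Myf6, Mef2c and Mef2a, out of 55536 genes measured in skeletal muscle of 15 mice. They were chosen by gene name, with earlier results of these data known, and each name matched 1 gene identifier in both deposited tables. All mice were labelled as males aged 2 months. Of these, 5 were wild type (controls), 5 had the genotype label Pdgfrb knockout (knockout) and 5 the label Pdgfrb D489V (D489V). The D489V form of this receptor for platelet-derived growth factor is constitutively active. Both changes were taken as limited to cells that express myogenin, which the genotype labels alone do not state. Poly(A) RNA was sequenced from pieces of muscle. The muscle sampled, the strain, the litters, the exact Cre line and whether the controls carried Cre were not given in the sources used here, and nothing states that mice were pooled. Myogenin is known to be switched on as myoblasts differentiate, after the satellite cell stage, and Myog is the gene whose regulation drives the recombination.

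Satellite cells are the stem cells of skeletal muscle and lie between the fibre and its basement membrane. PAX7 marks them, and after injury they activate the myogenic regulatory factors, a family of basic helix-loop-helix proteins that bind E-boxes in DNA. MYF5 and MYOD1 commit cells to the muscle lineage, myogenin drives their differentiation, and MYF6 (MRF4) predominates in mature fibres. MEF2 proteins cooperate with these factors at muscle genes, and the membrane protein myomaker, encoded by Mymk, allows myoblasts to fuse.

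Values are normalized counts: the authors scaled the gene counts between samples and rounded them to whole numbers. Their sum per mouse ran from 29815559 to 36489777. Pdgfrb RNA was present in every mouse, at 1673 to 1848 in controls, 958 to 1628 in knockout and 820 to 1062 in D489V muscle, all mutant values lying below all controls. The log2 change was -0.45 in knockout, which missed the threshold in limma (adjusted p 0.294), and -0.96 in D489V (adjusted p 0.00168); the deleted part of the gene and the share of cells recombined were not given in the sources used here. Knockout replicate 3, labelled male, held 3165 normalized counts of Xist, the RNA of the inactive X chromosome, against at most 101 elsewhere. D489V replicate 3 held 1439 of Krt5, a keratin of skin, against at most 54 elsewhere. Summed B and T cell markers (8 genes) were at 5035 in control 5 and at 1858, 4659 and 1252 in knockout replicates 3 to 5. In the other mice they were at 35 to 256. The 10 fibre markers (among them Acta1, Ckm and Myh4) summed to 4741970 to 6680308 per mouse and none was at 0, which matches the labelled tissue. Nothing states whether the mice of a group came from separate litters or handling, so p-values measure only the spread between these samples.

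All 10 genes are protein-coding, and their coordinates are those of GENCODE release M21 on GRCm38. Myf5 (chromosome 10, 107482908 to 107486134) and Myf6 (chromosome 10, 107492853 to 107494737) are neighbours on the minus strand, with 6718 bases and no other annotated gene between them. Mymk lies on chromosome 2 (27061636 to 27072179), Myog on chromosome 1 (134289989 to 134292548) and Cdh15 on chromosome 8 (122847966 to 122867397). Mef2c lies on chromosome 13 (83504034 to 83667080), and Mef2a (67231163 to 67372858) and Myod1 (46376474 to 46379099) both lie on chromosome 7. Pax7 is on chromosome 4 (139737062 to 139833528) and Calcr on chromosome 6 (3685680 to 3764714). Mef2a shares 302 exonic bases with Lysmd4 on the opposite strand, and since the strand setting of the counting was not given, reads there could be shared; Lysmd4 held a mean of 385 against 2901 for Mef2a. No other gene of the set shares exonic bases with an annotated gene.

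RefSeq start-site windows (250 bases before to 50 after the start, GRCm38.p6) were available for 7 of the 10 genes, in 10 windows; Myod1, Myf6 and Mymk had no entry. Each window was searched on both strands for the E-box CANNTG, bound by the myogenic factors and many other helix-loop-helix proteins, and for CTANNNNTA, a loose core of the MEF2 site. The windows of 3 genes are printed: the gene of the driver (Myog) and members that differed between the mutant groups (Cdh15, Mef2a). Mef2c also differed, and its 3 windows are not printed. Capitals mark the matches.

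Myog promoter, chr1:134289754-134290053, plus strand: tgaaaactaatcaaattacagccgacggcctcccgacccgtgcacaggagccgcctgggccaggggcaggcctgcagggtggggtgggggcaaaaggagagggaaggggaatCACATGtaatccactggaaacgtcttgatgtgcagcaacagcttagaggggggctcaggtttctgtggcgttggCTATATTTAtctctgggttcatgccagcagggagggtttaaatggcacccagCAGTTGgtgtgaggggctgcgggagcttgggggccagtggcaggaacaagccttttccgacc

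Cdh15 promoter, chr8:122848124-122848423, plus strand: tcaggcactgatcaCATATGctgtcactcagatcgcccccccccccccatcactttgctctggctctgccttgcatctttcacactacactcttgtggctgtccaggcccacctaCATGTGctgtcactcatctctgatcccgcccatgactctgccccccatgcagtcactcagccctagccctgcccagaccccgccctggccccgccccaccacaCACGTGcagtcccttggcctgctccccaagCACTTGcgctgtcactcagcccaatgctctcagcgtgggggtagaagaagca

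Mef2a promoter, chr7:67372809-67373108, minus strand: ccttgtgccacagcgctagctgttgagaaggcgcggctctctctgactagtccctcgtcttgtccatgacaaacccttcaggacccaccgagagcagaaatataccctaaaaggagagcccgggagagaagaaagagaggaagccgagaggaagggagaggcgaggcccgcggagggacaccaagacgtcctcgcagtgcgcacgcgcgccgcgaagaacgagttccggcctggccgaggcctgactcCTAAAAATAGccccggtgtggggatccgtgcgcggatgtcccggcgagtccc

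The Myog window held 2 E-boxes, CACATG and CAGTTG, whose first bases lie 138 and 12 bases before the start site, with the MEF2 core match CTATATTTA between them, 64 bases before the start. Cdh15 held 4 E-boxes and no MEF2 core. Its RefSeq window begins at 122848124, after the GENCODE start of the gene at 122847966, so it lies within the gene as annotated there. Mef2a held no E-box, and its MEF2 core matches on the 2 strands are CTAAAAATA and TAAAAATAG, which overlap by all but 1 base. Of the other windows, the single Pax7 window held neither motif, and the Myf5 window held no E-box but 2 overlapping MEF2 core matches. The first of 3 Mef2c windows held 2 E-boxes and no MEF2 core, the second neither, and the third 1 E-box and 1 MEF2 core. Of the Calcr windows, the first held neither motif and the second 1 E-box and 1 MEF2 core. Among 32851 RefSeq windows of the same length, 72.3% held at least 1 E-box, 39.6% at least 2, 6.5% at least 4, and 21% at least 1 MEF2 core, so that an E-box in such a window is common. A match is a run of letters and no evidence of binding.

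Per kilobase of exon, Myf6 and Mef2c stood highest and Pax7, Myf5 and Calcr lowest. The length used was that of all annotated exons of a gene merged: 15715 bases for Mef2c, 14681 for Mef2a and 1263 for Myf6. A single transcript can be shorter, so the order between genes depends on this divisor. Before division by length, the control means were 12261 for Mef2c and 2292 for Myf6. Myf6 had the highest mean over 15 mice, 1917 ± 300.5 normalized counts per kilobase (SD, n = 15). Mef2c followed at 837 ± 118, below Myf6 in all 15 mice. Myog (331 ± 68.8), Myod1 (279.6 ± 68.8), Cdh15 (232 ± 30.4) and Mef2a (198 ± 39.3) came next, and the ranges of neighbours in this order overlapped: Myog was above Myod1 in 12 of 15 mice, Myod1 above Cdh15 in 13 and Cdh15 above Mef2a in 12. Mymk, the fusion gene, averaged 57.9 ± 29.9 per kilobase, below Mef2a in all 15 mice. Pax7 (26.5 ± 4.80) and Myf5 (26.1 ± 4.25) could not be ordered, Pax7 being higher in 7 of 15 mice, and Calcr was lowest at 7.92 ± 1.90. Myf6 and Myf5 thus stood far apart although they are neighbours in the genome.

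**Figure D1:**
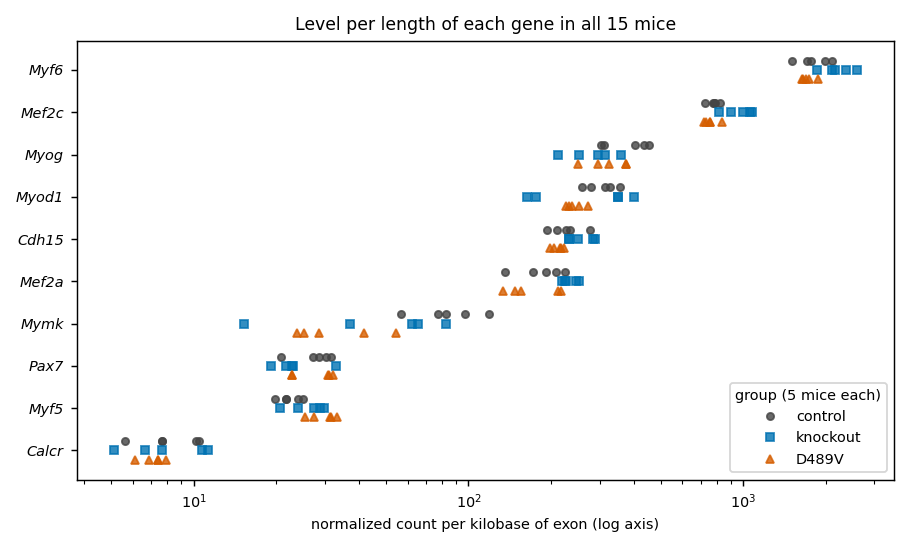
Normalized count per kilobase of exon (log axis) for each of the 10 genes, with a point for each of the 15 mice, circles for controls, squares for knockout and triangles for D489V. Myf6 is highest at a mean of 1917 and Calcr lowest at 7.92, and Mymk has the widest spread relative to its level.

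Each pair of groups, 5 mice against 5, was compared with limma on log2(normalized count + 1), over all genes that reached 10 in 5 or more of the 10 mice. Genes were called where the p adjusted by Benjamini-Hochberg over all of them was under 0.05, and all log2 changes are on the log2(normalized count + 1) scale, which understates changes of low genes. All 10 genes passed the filter in each comparison. As these are pieces of whole muscle, fewer cells of a type and less RNA per cell cannot be told apart. Knockout and D489V are compared with the same 5 controls, so these comparisons are not independent of each other.

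Pax7, the gene that defines the satellite cell, held 167, 185, 159, 178 and 122 normalized counts in controls 1 to 5. It held 127, 193, 135, 134 and 112 in knockout mice and 189, 133, 182, 133 and 180 in D489V mice. These values overlap throughout, with means of 162 ± 24.6, 140.2 ± 30.9 and 163 ± 28.0 (SD, n = 5 each). The log2 change was -0.22 in knockout (95% interval -0.59 to 0.15; limma adjusted p 0.52) and 0.0076 in D489V (95% interval -0.34 to 0.35; limma adjusted p 0.992). Calcr, a receptor of quiescent satellite cells, was low, at 22 to 41 in controls, 20 to 44 in knockout and 24 to 31 in D489V mice, and its log2 changes from control were -0.032 and -0.18 (limma adjusted p 0.961 and 0.828). A p that misses the threshold does not show that the groups were equal.

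Myf5, a factor of committed satellite cells, was read at 45, 45, 50, 41 and 52 in controls 1 to 5. Its values were 53, 69, 66, 57 and 65 in the D489V mice, each above every control. The knockout mice, at 60, 57, 43, 50 and 62, overlapped both. The log2 change in D489V was 0.40 with a standard error of 0.15 (95% interval 0.074 to 0.73), an exact two-sided permutation p of 0.00794 as a single gene, the smallest that 5 against 5 mice can give, and a limma adjusted p of 0.418. Groups did not overlap for 2.16% of the 15339 genes tested in that comparison, 1.1% with D489V higher and 1.06% with D489V lower. In knockout the log2 change was 0.21 (limma adjusted p 0.538).

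Mymk showed the greatest differences of the set. Its normalized counts were 147, 117, 125, 179 and 86 in controls 1 to 5. In D489V muscle they were 82, 36, 38, 43 and 63, all below the lowest control. In knockout muscle they were 99, 125, 23, 94 and 56, with replicates 1, 2 and 4 inside the control range and replicate 3, the library with Xist, lowest. The means were 131 ± 34.7, 52.4 ± 19.7 and 79.4 ± 40.0 (SD, n = 5). The log2 change in D489V was -1.33 with a standard error of 0.261 (95% interval -1.91 to -0.76), with an exact permutation p of 0.00794 and a limma adjusted p of 0.0841, which missed the threshold; by unadjusted p, Mymk ranked 50 among 15339 genes. With array weights the limma adjusted p was 0.0448, and over the 20 alternatives it ran from 0.0448 to 0.225 while the log2 change stayed between -1.51 and -1.21. In knockout the log2 change was -0.88, SE 0.398 (limma adjusted p 0.327, exact permutation p 0.0794), and without knockout replicate 3 it was -0.49. Mymx, which encodes the small protein that completes fusion with myomaker, was near the limit of reading, at 5 to 26 in controls, 2 to 27 in knockout and 4 to 21 in D489V mice. Markers of other cells were read beside these genes. Summed erythrocyte markers were at 5671 to 8413 in controls and 12454 to 22120 in D489V mice. Adipocyte markers summed to 1706 to 31598 in controls and 15727 to 57399 in D489V mice, so that these groups overlapped. The 8 proliferating cell markers summed to 1103 to 1956 in controls, 229 to 698 in knockout and 790 to 1553 in D489V mice, but 1 gene, Pttg1, held 538 to 1294, 43 to 102 and 564 to 1210 of this. The other 7 summed to 527 to 1030 in controls, 169 to 646 in knockout and 132 to 343 in D489V mice, where all were below the controls. Called against control were 1 of 8 proliferating markers lower in knockout and, in D489V, 2 of 8 lower with 0 of 5 erythrocyte and 0 of 6 adipocyte markers. Of all genes, 0.00656% were called in knockout and 0.0587% in D489V. Without D489V replicate 3 the D489V counts were 4 of 8 lower, 3 of 5 higher and 0 of 6, where 0.171% of all genes were called. The part of these markers in the results for Mymk and Myf5 was not tested.

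Myog, the differentiation factor and gene of the driver, held 603, 650, 455, 677 and 465 in controls 1 to 5. It held 470, 538, 317, 377 and 442 in knockout and 561, 442, 558, 373 and 486 in D489V mice. All groups overlapped, although the 3 highest values were all in controls. The log2 change was -0.41 with a standard error of 0.165 in knockout (95% interval -0.77 to -0.054; limma adjusted p 0.312; exact permutation p 0.0556) and -0.23 in D489V (-0.56 to 0.10; limma adjusted p 0.668). Myog RNA was present in every mouse of all groups.

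Myod1, the determination factor, was at 481, 607, 664, 586 and 520 in controls 1 to 5 and at 421, 468, 442, 432 and 507 in D489V mice. The highest D489V value, 507, lay above the lowest control only. Its log2 change in D489V was -0.33 with a standard error of 0.105 (95% interval -0.55 to -0.097; limma adjusted p 0.337; exact permutation p 0.0159). The knockout mice parted into 747, 649 and 650 in replicates 1 to 3 and 329 and 303 in replicates 4 and 5, around both sides of the controls. Their SD of 205 compared with 72.2 in controls and 34.4 in D489V mice, and the log2 change in knockout was -0.18 (limma adjusted p 0.722). Without 1 mouse it ran from -0.33 (without knockout replicate 1) to -0.0011 (without knockout replicate 5), and it was -0.031 without knockout replicate 4.

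**Figure D2:**
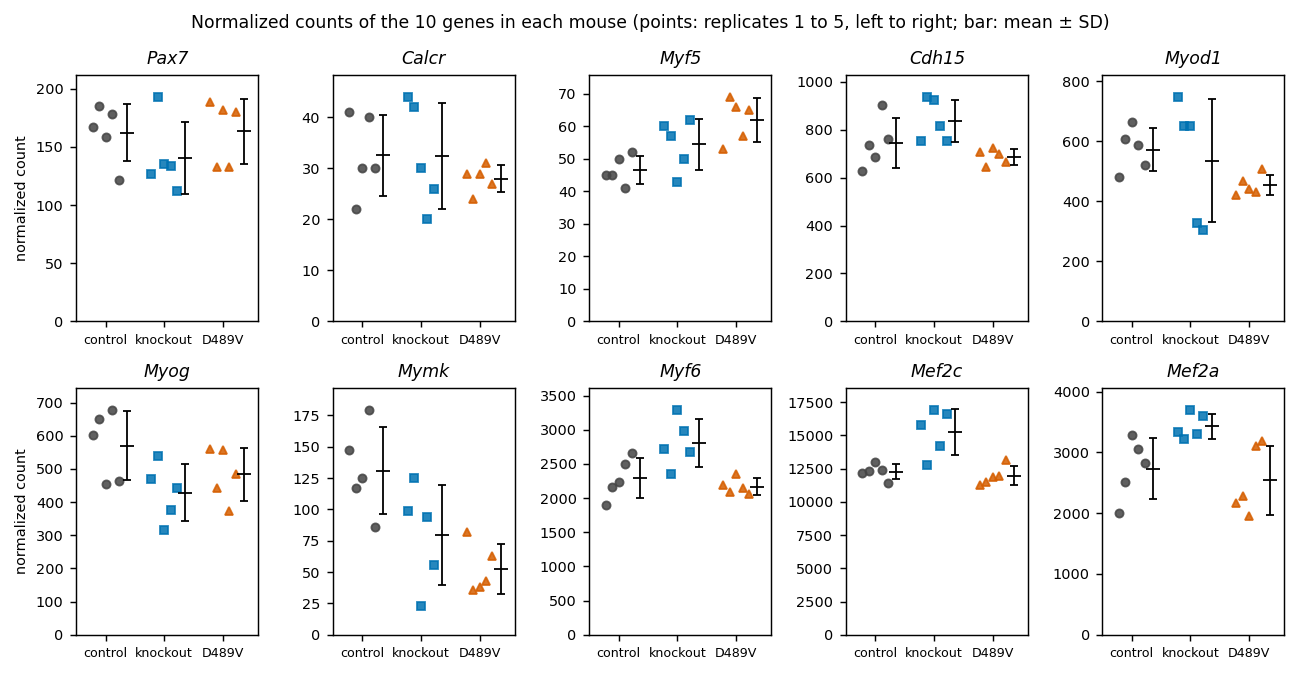
Normalized count of each of the 10 genes in each mouse, by group, with the group mean and SD beside the points (n = 5). The D489V points for Mymk (36 to 82) lie below all controls (86 to 179), those for Myf5 (53 to 69) above all controls (41 to 52), and the knockout points for Myod1 part into 303 to 329 and 649 to 747.

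In all, 0 of the 10 genes passed the threshold in knockout against control, where 0.00656% of the 15234 genes tested were called. At an unadjusted p under 0.05 there were 5 of 10, against 15.1% of all genes: Mef2c, Mef2a and Myf6 with higher means (7.65% of all genes) and Myog and Mymk with lower means (7.42%). No member had knockout and control groups that did not overlap, against 2.24% of all genes, 0.991% higher and 1.25% lower. In D489V against control, 0 of 10 passed, where 0.0587% of 15339 genes were called, 0.0261% higher and 0.0326% lower. At an unadjusted p under 0.05 there were 3 of 10, against 9.43% of all genes: Myf5 higher (5.37% of all genes), Myod1 and Mymk lower (4.06%). The median log2 change of the 10 genes was 0.072 in knockout and -0.11 in D489V, against 0.011 and 0.0019 over all genes tested. Log2 changes of the 10 genes were higher for 5 and lower for 5 in knockout, and higher for 2 and lower for 8 in D489V.

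The knockout and D489V groups differed from each other in 4 of the 10 genes, all higher in knockout: Myf6, Mef2c, Mef2a and Cdh15. In that comparison 20.8% of the 15299 genes tested were called 10.5% higher and 10.3% lower in knockout, so a call was frequent there. The median log2 difference was 0.21 over the 10 genes and 4.02e-04 over all genes tested. The others were not called, with log2 differences between -0.23 (Pax7) and 0.46 (Mymk, 95% interval -0.44 to 1.35).

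Myf6, the regulator of mature fibres, held 2724, 2354, 3284, 2979 and 2667 in knockout mice 1 to 5. It held 2196, 2084, 2358, 2144 and 2061 in D489V mice, where the highest value lay just above the lowest knockout value. Controls held 1905, 2162, 2237, 2501 and 2656 and lay across both. Means were 2802 ± 349.5 in knockout, 2169 ± 118 in D489V and 2292 ± 294 in controls (SD, n = 5), and the log2 difference between the mutant groups was 0.36, SE 0.0931 (limma adjusted p 0.0208). It remained past the threshold without any single library except D489V replicate 2, where the limma adjusted p was 0.0559, and with quantile normalization it was 0.0993.

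Mef2c, a MADS-box factor of muscle and of blood vessels, held 15750, 12790, 16887, 14185 and 16578 in knockout mice 1 to 5. In D489V mice the values were 11295, 11523, 11875, 11935 and 13144, and in controls 12196, 12310, 12968, 12411 and 11420. In 4 of 5 knockout mice Mef2c was above all controls and all D489V mice, and replicate 2 lay within them. The log2 difference between knockout and D489V was 0.34, SE 0.0971 (limma adjusted p 0.0289). Against control it was 0.31 in knockout (standard error 0.0995; limma adjusted p 0.302; exact permutation p 0.0159) and -0.037 in D489V (limma adjusted p 0.913). The call between the mutant groups was lost without knockout replicates 1, 3 or 5 or D489V replicates 1, 2 or 3, with limma adjusted p of 0.0537, 0.0608, 0.0591, 0.0754, 0.0727 and 0.0519. It was also lost with quantile normalization (log2 difference 0.19, limma adjusted p 0.119), with no filter on low values (limma adjusted p 0.0692) and with the replicate block (limma adjusted p 0.0551).

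Mef2a, its ubiquitous relative, held 3331, 3222, 3693, 3300 and 3606 in knockout mice 1 to 5, all above the D489V mice at 2167, 2284, 1954, 3106 and 3182. Groups did not overlap for 13.9% of all genes tested in that comparison, 7.22% with knockout higher and 6.7% with knockout lower. The D489V mice parted into 1954 to 2284 in replicates 1 to 3 and 3106 and 3182 in replicates 4 and 5. The controls spread as widely, at 1995, 2511, 3290, 3055 and 2822. The log2 difference between knockout and D489V was 0.46, SE 0.133 (limma adjusted p 0.0316), and against control the log2 change in knockout was 0.35 (limma adjusted p 0.305; exact permutation p 0.0159). The call was lost without knockout replicates 1, 3 or 5, with limma adjusted p of 0.0504, 0.0632 and 0.0632. It was also lost without D489V replicates 1, 2 or 3, with limma adjusted p of 0.0836, 0.0789 and 0.0656.

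Cdh15, the gene of M-cadherin, which joins satellite cells to their fibre, held 753, 936, 923, 816 and 754 in knockout mice 1 to 5. All of these were above the D489V mice, at 705, 642, 725, 700 and 664, and controls held 626, 736, 685, 904 and 761. The log2 difference was 0.28, SE 0.0897 (limma adjusted p 0.0457). This call was the least stable: it was lost in 14 of 21 alternatives, over which the limma adjusted p ran from 0.0175 to 0.111. Of the single libraries, only the fits without knockout replicates 1 or 5 kept it (limma adjusted p 0.0449 and 0.0442), and it was lost without knockout replicates 2, 3 or 4 (0.0942, 0.096 and 0.0698) and without D489V replicates 1 to 5 (0.0836, 0.11, 0.0606, 0.0554 and 0.0707).

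**Figure D3:**
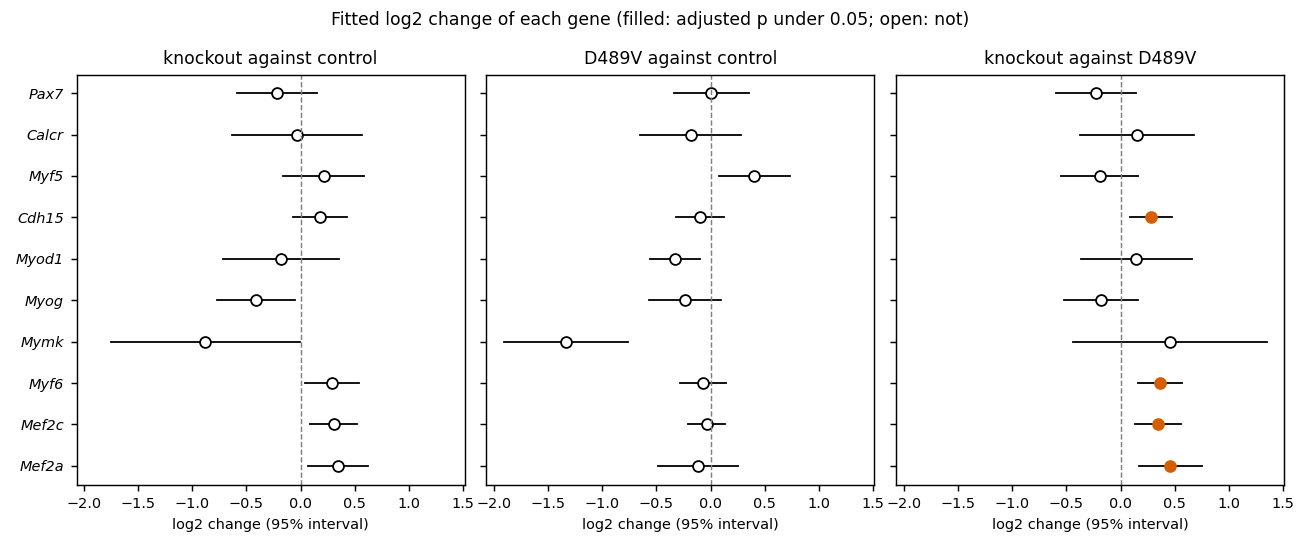
Fitted log2 change of each of the 10 genes in the 3 comparisons, with 95% intervals from limma; filled points passed an adjusted p of 0.05 over all genes. Filled points are Cdh15, Myf6, Mef2c and Mef2a in knockout against D489V (0.28 to 0.46), and none is filled against control, where Mymk has the lowest value (-1.33 in D489V).

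Knockout replicate 3, with Xist, and D489V replicate 3, with Krt5, were then both left out. The 4 genes kept their direction and only Myf6 was called (log2 difference 0.33, limma adjusted p 0.0412), while the share of all genes called was 10.6%. With all 10 mice, markers of other cells also differed between these groups. Summed endothelial markers (6 genes) were at 7819 to 12828 in knockout and 15307 to 17936 in D489V mice, and all 6 genes were called lower in knockout. Summed adipocyte markers (6 genes, 5 called lower in knockout) were at 6001 to 9536 against 15727 to 57399, Schwann cell markers (6 of 6 called lower) at 5672 to 8894 against 11310 to 45766 (highest in D489V replicate 3), and erythrocyte markers (5 of 5 called lower) at 3175 to 8032 against 12454 to 22120. Without knockout replicate 3 and D489V replicate 3, genes called lower were 3 of 6 endothelial, 5 of 6 adipocyte, 5 of 6 Schwann cell and 5 of 5 erythrocyte markers. No marker of these lists was at 0 in all mice. Fibre markers were not called in 10 of 10 cases, with sums of 4741970 to 6680308 in knockout and 5308212 to 6025714 in D489V mice. These sums hide a wide spread between mice of Myh7, the slow fibre myosin in the list. It was at 1581 to 94986 in knockout, 16602 to 93311 in D489V and 5749 to 88845 in control mice. The part of these differences in the results for the 4 genes was not tested.

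Across the 15 mice, 4 of the 45 pairs of these genes were correlated at an adjusted permutation p under 0.05, all positively. Myf6 and Cdh15 had a Pearson r of 0.73 (permutation p 0.00209, adjusted 0.0477) and a Spearman rho of 0.81 (permutation p 3.8e-04, adjusted 0.00855). Mef2c and Mef2a had an r of 0.72 (permutation p 0.00321, adjusted 0.0477) and a rho of 0.88 (permutation p 4e-05, adjusted 0.0018). For Myf6 and Mef2c r was 0.70 (permutation p 0.00385, adjusted 0.0477) and rho 0.53 (permutation p 0.046, adjusted 0.23). Pax7 and Myog had an r of 0.70 (permutation p 0.00424, adjusted 0.0477) and a rho of 0.65 (permutation p 0.00972, adjusted 0.124). Without the 2 mice farthest from the median of the first gene, r was 0.62, 0.63, 0.52 and 0.78 in this order. After the group means were removed, r was 0.49, 0.43, 0.22 and 0.68, and none of the 45 pairs passed (adjusted permutation p 0.722, 0.427, 0.829 and 0.336). Leaving out any single mouse other than control 5 left 0 or 1 of the pairs, and without control 5 there were 4. Myog and Mymk, with an r of 0.67, did not pass (permutation p 0.00684, adjusted 0.0616).

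**Figure D4:**
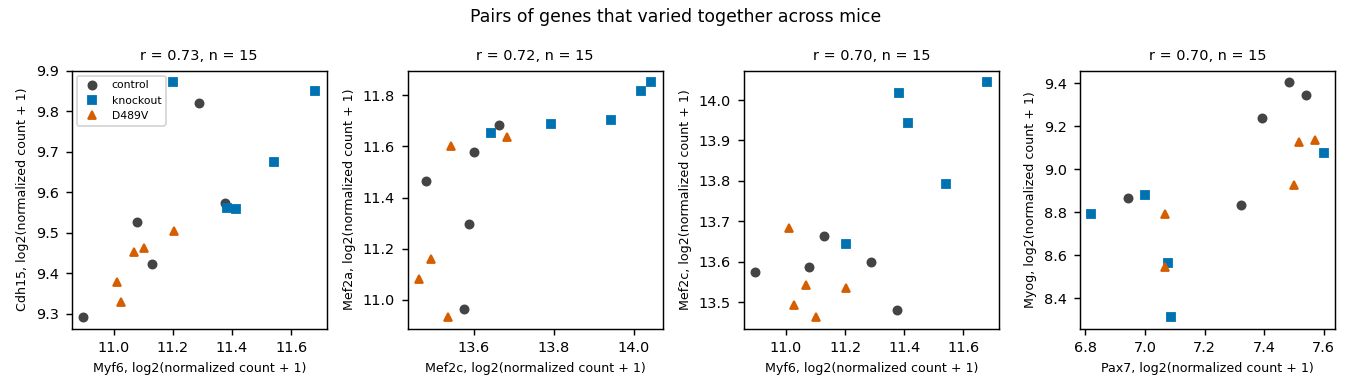
The 4 pairs of genes whose log2(normalized count + 1) correlated over 15 mice at an adjusted permutation p under 0.05, with a point for each mouse marked by group. In the panels with Myf6 or Mef2c the knockout squares lie towards the upper right, and r within the group-centred values was 0.22 to 0.68 over the 4 pairs.

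Among 12159 genes with a mean of 50 or more, the genes most like each member by Pearson r over the 15 mice were picked by rank alone, at most 3 for each. Mef2a was followed most closely, by Otud6b, Fam210a and Usp9x (r 0.99 each), while Mef2c had Gm12655, Synj2bp and Ufm1 (0.93, 0.90 and 0.89). Myog was most like Pnmal2, S100a16 and Myl1 (0.95, 0.88 and 0.86), of which Myl1 encodes a myosin light chain of fast fibres. Myf6 was most like Zfp346, Acsl6 and Mettl11b (0.91 each). Mymk was most like Cdkn1c, a cell cycle inhibitor (0.85), then Emilin1 and Pafah2 (0.83 and 0.81), and Myod1 was most like Acvr1, a BMP receptor (0.90), then Irgm2 and Vps53 (0.89 and 0.86). For Cdh15 the genes were Fnta, P4hb and Mb21d2 (0.88, 0.87 and 0.86), for Pax7 2700046G09Rik, Tulp3 and Plxna3 (0.85, 0.84 and 0.81), and for Myf5 Mmrn1 and Tigd5 (0.83 and 0.77). No other member was among the closest genes named here. These r are the highest of many over 15 mice, with group differences left in, and were not tested.

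Genes that work with these regulators were counted in 8 lists. In knockout against control, 0 genes were called in any list (limma), where 0.00656% of all genes were called. At an unadjusted p under 0.05, where 7.42% of all genes were lower and 7.65% higher, the satellite cell surface list had 4 of 18 lower and 1 higher, the Notch list 4 of 14 lower and 0 higher, and the partners and repressors of the myogenic factors 3 of 17 lower and 0 higher. The adhesion and fusion list had 3 of 17 lower and 0 higher, the MEF2 list 2 of 19 lower and 3 higher, and the embryonic and regeneration list 2 of 16 lower and 0 higher. For the denervation list the counts were 2 of 16 lower and 1 higher, and for the growth signals 1 of 13 lower and 2 higher. The median log2 changes of the Notch, partner and fusion lists were -0.26, -0.30 and -0.20, against 0.011 over all genes, and without knockout replicate 3 they were -0.14, -0.24 and -0.13. In D489V against control the single call was Ankrd1, a stress-responsive repeat protein of muscle in the embryonic and regeneration list (1 of 16 tested), at 497 to 628 against 262 to 358 in controls (log2 change 0.74, limma adjusted p 0.0408). Of all genes, 0.0587% were called. At an unadjusted limma p under 0.05, 5.37% of all genes were higher and 4.06% lower. Counts were 5 of 16 higher and 1 lower in the embryonic list, and 4 of 14 and 2 in the growth signals. They were 2 of 14 and 0 for Notch, 2 of 17 and 1 for partners, and 1 of 19 and 1 for MEF2 genes. The surface, denervation and fusion lists had 0 higher, with 2 of 18, 1 of 16 and 0 of 17 lower. Endothelial markers had 6 of 6 genes lower in knockout than in control at an unadjusted p under 0.05, and the part of this in the Notch list, whose Dll4 and Notch1 are also endothelial genes, was not tested.

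Between knockout and D489V, the partners and repressors of the myogenic factors had 6 of 17 called lower in knockout and 1 higher, with a median log2 difference of -0.37, where 10.3% of all genes were called lower and 10.5% higher. Id1, Id3 and Id4, which bind E proteins and keep the myogenic factors from DNA, had log2 differences of -1.20, -0.87 and -0.84 (limma adjusted p 6.2e-04, 0.00247 and 0.00857). These are values of whole muscle, and the cell types behind them were not tested. Id1 was at 443 to 512 in knockout and 880 to 1493 in D489V mice, and Twist1, a repressor of MYOD1, at 37 to 117 and 107 to 187 (log2 difference -1.04, limma adjusted p 0.0283). Of the embryonic and regeneration genes, 6 of 16 were called lower in knockout and 0 higher. Igfn1, Ankrd1, Cdkn1a and Myh3, the last an embryonic myosin, had log2 differences of -1.98, -1.03, -0.96 and -0.84 (limma adjusted p 0.0151, 0.0295, 0.0188 and 0.0472). The Notch list had 5 of 14 lower and 0 higher, with Hey2, Dll1, Dll4 and Notch1 at -1.26, -0.87, -0.83 and -0.64 (limma adjusted p 0.0196, 0.00983, 0.0154 and 0.00513).

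Among the MEF2 cofactors and deacetylases 2 of 19 were called higher in knockout and 2 lower, which like the other counts here stands against 10.5% of all genes called higher and 10.3% called lower. Smyd1, a methyltransferase needed for the sarcomere, was at 17770 to 20578 in knockout and 8996 to 17487 in D489V mice (log2 difference 0.68, limma adjusted p 0.0192), and Eya4, a transcriptional cofactor, differed by 0.49 (limma adjusted p 0.0182). Hdac7 and Hdac5, class II deacetylases that hold MEF2 silent, differed by -0.66 and -0.44 (limma adjusted p 0.00601 and 0.0136). The satellite cell surface list had 1 of 18 higher (Itgb1, 0.45, limma adjusted p 0.0299) and 2 lower (Tenm4 and Cav1, -1.22 and -0.70, limma adjusted p 0.00247 and 0.00424). The adhesion and fusion list had 1 of 16 higher, again Itgb1, and 3 lower, Ptger4, Jam2 and Kirrel, at -1.11, -0.48 and -0.38 (limma adjusted p 0.0137, 0.00883 and 0.0288). The growth signals had 3 of 14 lower, Fst, Wnt4 and Igf1r, at -0.95, -0.60 and -0.60 (limma adjusted p 0.00714, 0.0447 and 0.019), and the denervation list had 1 of 16, Musk, the receptor kinase of the neuromuscular junction, at 1.60 (limma adjusted p 0.0134). Musk was at 99 to 352 in knockout and 47 to 102 in D489V mice. Without knockout replicate 3 and D489V replicate 3, the lists of partners, embryonic and Notch genes had 4 of 17, 6 of 16 and 3 of 14 called lower and 1, 1 and 0 higher, against 10.6% of all genes called. Cav1, Dll4 and Notch1 are also endothelial genes, and the part of the endothelial difference given above in these counts was not tested. Nor was its part tested in the log2 differences of single genes, among them Id1, Id3, Id4, Hey2, Hdac7 and Jam2.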

How the data were processed

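The authors sequenced poly(A) RNA with a directional library kit, per the labels' protocols. Trim Galore 0.6.0, cutadapt, FastQC, STAR 2.7.0e, DESeq2 1.26.0 and GRCm38 are named in the submitters' processing notes, without their settings. The 2 deposited tables hold a score: counts normalized by the authors and rounded to whole numbers, per the file headers and names. The tables have 5 control columns in common, identical in both, and were joined by gene identifier; the median ratio of a sample to the geometric mean was 1.0069 to 1.0097, which places both tables on 1 scale. Original read depth is unknown, so no count test was run.

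Annotation came from GENCODE M21, in which all 55536 identifiers were found. The two-sided tests on log2(value + 1) came from limma 3.58.1 under R 4.3.3, with a variance trend in eBayes and no covariates. In simulated data with genes changed by 1 on the log2 scale, limma recovered 69.4% of those tested in knockout against control, 63.3% in D489V against control and 71.3% in knockout against D489V. Exact permutation tests covered single genes, and correlations used 100000 resamples. Samples that share a replicate number were not taken as pairs. Named list genes are the called members with the greatest absolute change, at most 4 per list and comparison. A gene that ranked among those most like Myf5 is not reported here. The genes and lists were chosen with earlier results of these data known. Plots used matplotlib 3.10.9 in Python 3.11.15.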

Additional observations from a re-analysis of the deposited data

Results flagged for a closer look

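The change from control differed between knockout and D489V for 4 of the 10 genes by the direct limma comparison of the 2 groups, in which the shared controls take no part. The difference on the log2 scale was 0.36 for Myf6, 0.28 for Cdh15, 0.34 for Mef2c and 0.46 for Mef2a, with all 4 higher in knockout. In this comparison 20.8% of all genes tested were called. In 30 groups of 5 values, 0 samples lay apart from their group by more than 0.71 of its range, against 1.5 groups by chance.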

How the results depend on the processing

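For the 10 genes against control, the number called was 0 in knockout under all 20 alternatives, and in D489V it was 1 with array weights and 0 under the other 19. Between knockout and D489V it was 4 as reported, 2 with no filter on low values, 1 with quantile normalization, 2 with the replicate block and 1 without knockout 3 and D489V 3 together (chosen after seeing the data). Leaving out 1 replicate gave 0 to 3, with 0 without D489V replicate 2 and 1 without D489V replicates 1 or 3 or knockout replicate 3. The number of correlated pairs was 4, but 2 by Spearman, 0 for deviations from the group means and 0 to 4 without 1 mouse.

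Over all genes, knockout against control gave 1 call, 3 after quantile normalization, 3 after upper-quartile rescaling, 16 with all 15 samples in 1 fit and 1 to 7 without 1 replicate. D489V against control gave 9, and 19 with pseudocount 5, 4 for genes averaging at least 50, 86 with array weights, 21 with robust eBayes, 16 after quantile normalization, 23 after upper-quartile rescaling, 1 with all 15 samples in 1 fit and 2 to 26 without 1 replicate. Knockout against D489V gave 3181, and 1398 to 3686 without 1 replicate, with the lowest without D489V replicate 1, and 1589 without knockout 3 and D489V 3. What moved these counts (the cause) was not tested.

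With the replicate block 1, 7 and 2208 genes and 0, 0 and 2 of the 10 genes were called. In the same order, deviations of samples that share a number correlated at -0.25 to 0.31, -0.47 to 0.46 and -0.06 to 0.17, and the numbers were not taken as pairs. Among 607 single-gene values, 560 stayed on their side of the threshold with the same sign, 33 fell short of it, 1 passed it and 13 changed sign. The changes of sign were in 3 genes. Calcr in knockout (-0.032) was 0.079 with quantile normalization, 0.063 with array weights and -0.16 to 0.12 without 1 replicate. Pax7 in D489V (0.0076) was -0.0041 with upper-quartile rescaling, -0.10 with array weights and -0.091 to 0.077 without 1 replicate. Myod1 in knockout against D489V (0.14) was -2.6e-04 to 0.32 without 1 replicate.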
